A study of Zea mays with 72 samples.

Results

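ZmPep3 is a plant elicitor peptide of maize, and the response of leaf 6 to 2 h of it was taken from 12 RNA-seq libraries: 6 of leaf 6 supplied with ZmPep3 and 6 of leaf 6 kept as control. These are 12 of the 72 libraries of the series, and all 32235 genes with values were followed. The treated leaves had ZmPep3 in their water at about 1 µM (10 µl of a 1 mM solution in 10 ml) for 2 h, and the 6 others are labelled as control. All leaves came from glasshouse seedlings of the maize inbred line B73 at stage V4, and the labels name no transgene. In every group, controls included, whole leaves had been cut from the plant, cut again under water, left to recover and acclimated in clean moving air before treatment, so wounding and detachment are common to both groups. The labels call leaves 5 and 6 immature and leaf 4 mature, and no harvest time is stated for the controls. Leaf 6 exposed for 2 h to (Z)-3-hexenyl acetate (HAC), a leaf volatile, and leaves 5 and 4 with and without ZmPep3, again 6 libraries per group, serve below for comparison.

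Plant elicitor peptides are cut from precursor proteins when cells are damaged or attacked. In Arabidopsis they are bound by PEPR receptor kinases, which act with SERK co-receptors and set off calcium influx, an oxidative burst, MAP kinase cascades, and jasmonate and ethylene synthesis. In maize, ZmPep3 is known for eliciting jasmonate, ethylene, volatile and benzoxazinoid responses related to defence against herbivores.

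The libraries carried the RNA of a photosynthetic leaf. The summed level of 17 photosystem and light-harvesting genes was 64157 to 80557 CPM (counts scaled to library size) in ZmPep3 leaves and 68756 to 86596 CPM in controls. That of 17 genes of C4 photosynthesis and the Calvin cycle was 41055 to 55378 CPM after ZmPep3 and 47065 to 63863 CPM in controls. Of 8 shoot meristem genes, wus1 and gnarley1 were at 0 in all 12 libraries, and kn1 averaged 0.00635 CPM after ZmPep3 and 0.0623 CPM in controls. Other members were expressed: the 8 genes summed to 49.18 to 57.21 CPM after ZmPep3 and 48.83 to 62.97 CPM in controls, and 3 passed the filter. Library totals ran from 29643845 to 29970358 counts for ZmPep3 and from 26212015 to 29950996 for controls. The first principal component of log2 CPM held 52.2% of the variance over the 12 libraries, and ZmPep3 leaves lay at 62.4 to 106 on it, controls at -98.6 to -62.6. Control libraries 5 and 6 stood apart on the second component (9.61% of the variance), at -43.5 and -74.75, against 7.86 to 60.5 for controls 1 to 4.

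A large part of the leaf 6 transcriptome differed between leaves given ZmPep3 for 2 h and controls. At an adjusted p under 0.05 (quasi-likelihood test of edgeR, Benjamini-Hochberg, as for all adjusted p-values here), 10762 of 25558 genes tested passed, or 42.1%. Of these, 5946 genes rose (23.3% of all tested) and 4816 fell (18.8%). Changes of at least 2-fold were more often rises, with 3045 genes (11.9%) against 1239 falls (4.85%). ZmPep3 and control libraries did not overlap in CPM for 5667 genes (22.2%). The median log2 fold change over all genes tested was -0.02, which is the level against which each gene group below can be read. Likewise, the share of a gene group that was called can be read against 42.1%. Fewer cells of a type and less RNA per cell cannot be told apart in whole leaves. With library scaling by DESeq2 size factors the split was 5426 higher and 5834 lower, and without control libraries 5 and 6 it was 5338 higher and 4041 lower.

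**Figure D1:**
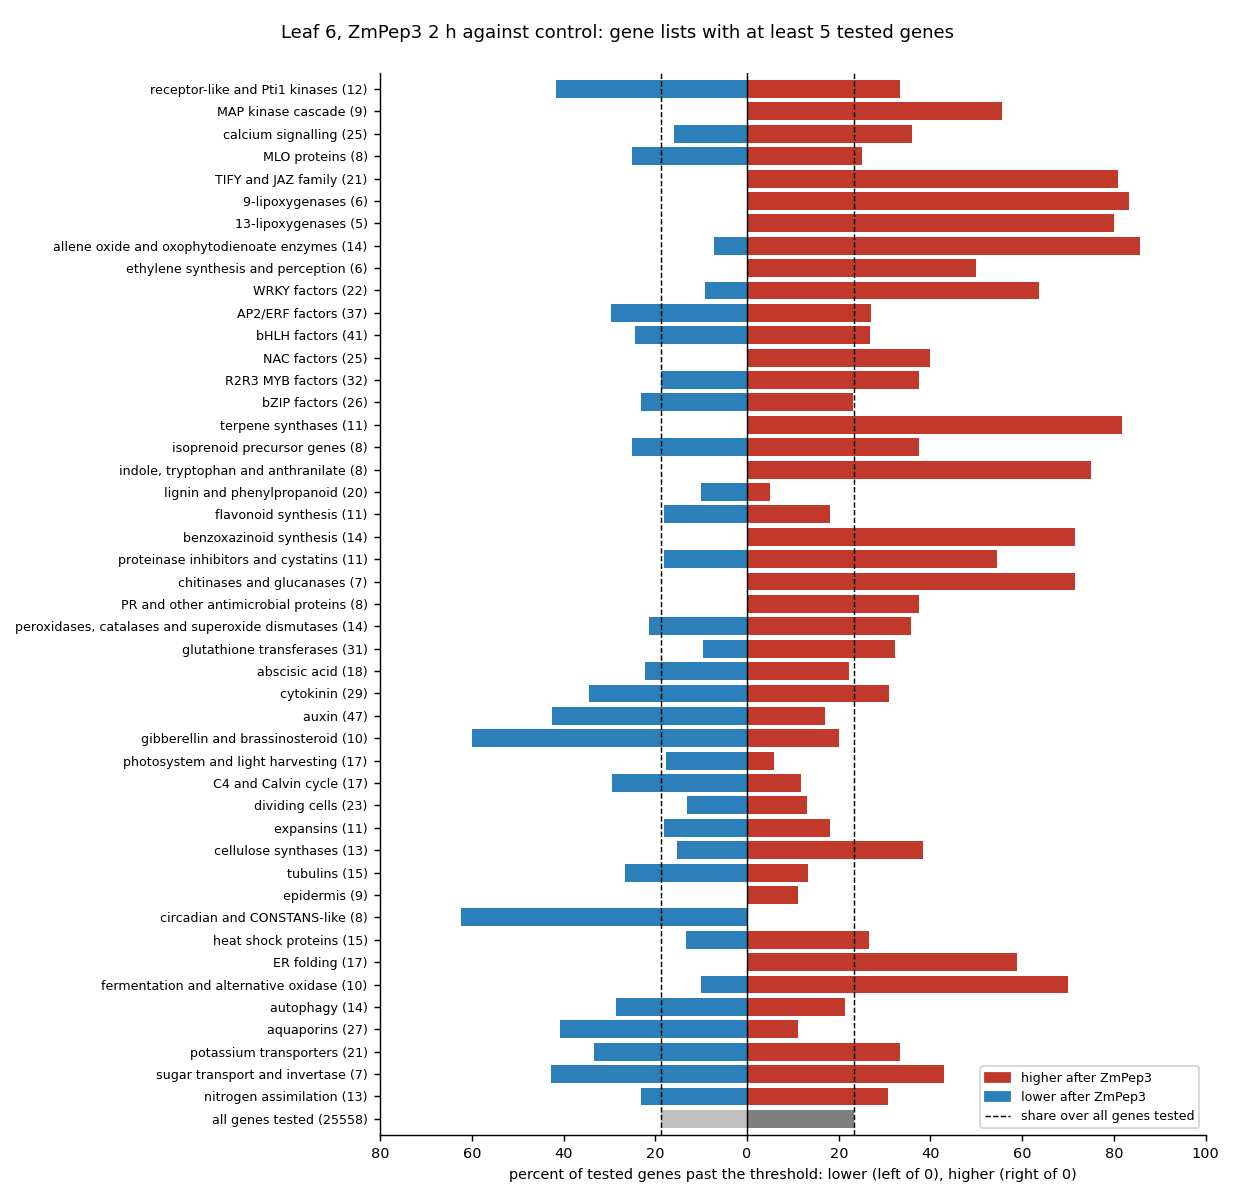
Percent of tested genes in each list that were higher (bars right of 0) or lower (left of 0) in the 6 ZmPep3 libraries than in the 6 control libraries at an adjusted p under 0.05; the number of genes tested is in brackets, and dashed lines mark the shares over all 25558 genes. Lipoxygenase, jasmonate, terpene and benzoxazinoid lists extend far to the right of the 23.3% line. The circadian, gibberellin and brassinosteroid, auxin and aquaporin lists extend beyond 18.8% on the left. So do others, such as the sugar transport, receptor-like kinase, cytokinin and potassium transporter lists.

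The co-receptor genes serk2 and serk3 rose, and whether the receptor gene was called depended on the fit. A range of CPM runs from the lowest to the highest of the 6 libraries of a group, and changes are log2 fold changes ± SE of ZmPep3 leaves against controls. Of 4 genes for the peptide receptor and its SERK co-receptors, 3 rose and none fell (median log2 fold change 1.41), or 2 rose and 1 fell where the spread was estimated from both groups alone. Such a fit, here and below, used only the libraries compared, so the filter on low counts and the library scaling were remade too. serk3 (NCBI Gene 542670), a SERK-type co-receptor kinase, stood at 78.2 to 149 CPM (median 101) in ZmPep3 leaves, against 24.7 to 32.2 CPM (median 26.99) in controls. The groups did not overlap, and the log2 fold change was 1.92 ± 0.13 (adjusted p = 1.85e-20). serk2 (NCBI Gene 542016) had 91.1 to 114 CPM (median 105) after ZmPep3 and 22.8 to 38.5 CPM (median 31.8) in controls, a log2 fold change of 1.72 ± 0.10 (adjusted p = 6.14e-23). PepR1 (NCBI Gene 100381406), the gene named for the receptor itself, was low in both groups, at 0.798 to 2.21 CPM (median 1.82) in ZmPep3 leaves and 0.108 to 1.299 CPM (median 0.775) in controls. Its groups overlapped, and its log2 fold change of 1.09 ± 0.42 (adjusted p = 0.0311) lost the call in that fit (adjusted p = 0.058), and without any 1 of ZmPep3 libraries 2, 3 or 5 (adjusted p 0.0567 to 0.064) or control libraries 2, 3 or 6 (adjusted p 0.064 to 0.0944). serk1 (NCBI Gene 542015) had a log2 fold change of -0.84 ± 0.41 (adjusted p = 0.0886) and was not called, but it was called at -1.13 without ZmPep3 library 5 (adjusted p = 0.0308), at -0.85 with the spread of both groups alone (adjusted p = 0.0183) and at -0.91 by the Wald test of DESeq2 (adjusted p = 0.0487).

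Receptor-like and Pti1-type kinases moved in both directions, with 4 rises and 5 falls among 12 (median -0.11). WAK-RLK2, named as a wall-associated receptor-like kinase, had 104 to 204 CPM (median 126) after ZmPep3 and 44 to 71.8 CPM (median 55.05) in controls, a log2 fold change of 1.27 ± 0.14 (adjusted p = 1.25e-11). lrk1, a receptor-like kinase, rose by 1.49 ± 0.27 (adjusted p = 7.65e-06), and Pti1b by 0.63 ± 0.09 (adjusted p = 3.63e-08). In the other direction, srk1 was at 0.0365 to 0.583 CPM (median 0.383) after ZmPep3 and 1.41 to 5.403 CPM (median 3.404) in controls (-3.21 ± 0.67, adjusted p = 6.47e-05), and cr4, the CRINKLY4 receptor kinase of epidermal differentiation, fell less far, with a log2 fold change of -0.67 ± 0.16 (adjusted p = 0.000464).

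The oxidative burst and kinase cascade genes were higher where they changed. NADPH oxidases make superoxide at the plasma membrane, and 2 of 3 rose (median 2.00). rbohC (NCBI Gene 100101532) was at 86.03 to 158 CPM (median 108) in ZmPep3 leaves, against 21.2 to 27.2 CPM (median 24.6) in controls, a log2 fold change of 2.22 ± 0.15 (adjusted p = 1.77e-20). rbohD had 55.6 to 92.5 CPM (median 68.3) after ZmPep3, against 11.5 to 32.2 CPM (median 13.9) in controls (2.00 ± 0.22, adjusted p = 1.66e-11), and neither gene's groups overlapped. rbohB, at 29.8 to 39.7 CPM (median 33.2) after ZmPep3 and 26.1 to 32.7 CPM (median 31.1) in controls, was not called (0.13 ± 0.11, adjusted p = 0.351). In the MAP kinase list 5 of 9 rose and none fell (median 0.52). simk1 and MPK4, both MAP kinases, reached 67.5 to 132 CPM (median 80.6) and 159 to 220.5 CPM (median 182) after ZmPep3, against 32.9 to 42.3 CPM (median 40.4) and 62.3 to 143 CPM (median 82.2) in controls. Their log2 fold changes were 1.16 ± 0.14 (adjusted p = 6.36e-11) and 1.05 ± 0.14 (adjusted p = 2.36e-09), and those of MAPKKK, mpk6 and MPK17-2 ran from 0.52 to 0.81.

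Calcium signalling genes gave 9 rises and 4 falls among 25 (median 0.10), or 2 falls where the spread was estimated from both groups alone. Among them were 2 calcium-dependent protein kinases whose symbols differ only in case: CDPK1 rose by 1.23 ± 0.19 (adjusted p = 3.13e-07) and cdpk1 (NCBI Gene 542762) by 0.78 ± 0.14 (adjusted p = 3.17e-06). The calmodulin gene CaM2 rose by 0.46 ± 0.10 (adjusted p = 8.36e-05). cipk31, a kinase that works with calcineurin B-like calcium sensors, fell to between 20.4 and 43.8 CPM (median 29.1), against 41.5 to 104 CPM (median 61.3) in controls, with a log2 fold change of -1.09 ± 0.17 (adjusted p = 1.15e-07) and overlapping groups. MLO genes, which in barley include a well-known powdery mildew susceptibility gene, gave 2 rises and 2 falls among 8. mlo1 rose by 0.97 ± 0.15 (adjusted p = 3.02e-07), mlo9 by 0.93 ± 0.17 (adjusted p = 7.32e-06), and mlo2 was one of the 10 largest named falls, at 2.34 to 5.81 CPM (median 4.53) after ZmPep3 and 14.7 to 21.9 CPM (median 18.6) in controls (-2.02 ± 0.19, adjusted p = 2.08e-14). Largest named rises and falls, here and below, were taken among called genes without overlap of the groups and with at least 5 CPM in the higher group.

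Lipoxygenases, the enzymes that oxidise polyunsaturated fatty acids, were abundant after ZmPep3. The 11 lipoxygenase genes took 3.53% to 3.94% of all counts in ZmPep3 leaves, against 0.499% to 1.63% in controls. Among 9-lipoxygenases 5 of 6 rose (median 2.83), the other being called lower without any 1 of ZmPep3 library 6 or control libraries 1 or 3, and their summed level was 22949 to 27571 CPM after ZmPep3, against 2363 to 5837 CPM in controls. lox5 (NCBI Gene 100037804) went furthest among the abundant ones, with 4698 to 5727 CPM (median 5082) in ZmPep3 leaves, against 251 to 469.5 CPM (median 285) in controls. Its lowest ZmPep3 library was far above its highest control, and its log2 fold change was 4.00 ± 0.35 (adjusted p = 5.17e-15). lox2 (NCBI Gene 100037802) reached 9793 to 12090 CPM (median 11009) after ZmPep3, against 1158 to 2467 CPM (median 1770) in controls (2.61 ± 0.28, adjusted p = 3.51e-12). lox1 (NCBI Gene 541856) had 7798 to 9779 CPM (median 8607) after ZmPep3, against 891 to 2832 CPM (median 1854) in controls (2.18 ± 0.26, adjusted p = 1.7e-10). lox4 (NCBI Gene 100037803) rose most on the log2 scale, by 4.57 ± 0.28 (adjusted p = 1.45e-21), to between 122 and 478 CPM (median 179.8) against 7.92 to 13.7 CPM (median 8.27) in controls, and lox3 (NCBI Gene 542495) rose by 3.05 ± 0.31 (adjusted p = 6e-13).

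The 13-lipoxygenases feed jasmonate synthesis and green leaf volatiles, and 4 of 5 rose (median 1.09; summed level 14138 to 17164 CPM after ZmPep3 and 2862 to 9887 CPM in controls). lox10 (NCBI Gene 100037809), which serves green leaf volatile synthesis, was the highest of them, at 13797 to 16836 CPM (median 15998) in ZmPep3 leaves and 2755 to 9756 CPM (median 5407) in controls. The control leaves spread widely among themselves, yet none reached the treated ones, and the log2 fold change was 1.44 ± 0.18 (adjusted p = 3.48e-10). Per transcript length, lox10 averaged 4649 ± 238 FPKM (SD, n = 6) after ZmPep3 and 1917 ± 832 FPKM in controls, and the 9-lipoxygenase lox2 3388 ± 220 FPKM after ZmPep3 and 619 ± 193 FPKM in controls. lox9 rose by 2.20 ± 0.17 (adjusted p = 4.54e-18), lox11 by 1.09 ± 0.19 (adjusted p = 1.83e-06), and ts1, the tasselseed gene that acts in jasmonate synthesis, by 0.89 ± 0.18 (adjusted p = 2.5e-05), the last with overlapping groups. lox7 was not called at 0.65 ± 0.32 (adjusted p = 0.0943), and was called at 1.00 without control library 4 (adjusted p = 0.0107).

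Downstream enzymes of jasmonate synthesis rose nearly throughout, with 12 of 14 genes for allene oxide synthases, allene oxide cyclases and oxophytodienoate reductases higher and 1 lower (median 2.23). aos1 (NCBI Gene 542150), an allene oxide synthase, had 2381 to 2975 CPM (median 2734) in ZmPep3 leaves, against 201 to 404 CPM (median 281) in controls, and a log2 fold change of 3.18 ± 0.28 (adjusted p = 4.14e-15). aos3 rose by 3.41 ± 0.19 (adjusted p = 1.38e-23), to between 61.1 and 79.95 CPM (median 72.4) against 4.35 to 9.31 CPM (median 6.94) in controls. aoc2 (NCBI Gene 100273356), an allene oxide cyclase, reached 499 to 717 CPM (median 632) after ZmPep3, against 72.7 to 108 CPM (median 92.7) in controls, and had the smallest adjusted p of the list (2.77 ± 0.14, adjusted p = 2.27e-25). aoc1 rose by 1.87 ± 0.13 (adjusted p = 9.36e-20). opr7 (NCBI Gene 732830), a reductase of the final steps in the peroxisome, stood at 152 to 185 CPM (median 159) after ZmPep3, against 21.8 to 27.7 CPM (median 24.8) in controls (2.71 ± 0.16, adjusted p = 3.39e-23).

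TIFY genes, which include the JAZ repressors that jasmonate removes and whose transcription it raises, gave 17 rises and no fall among 21 (median 1.58). There were 2 falls with DESeq2 size factors and by the Wald test of DESeq2, and 1 without control libraries 5 and 6 or without any 1 of ZmPep3 libraries 1 or 2 or control libraries 2 or 5. TIFY27 (NCBI Gene 100276383) was among the higher ones, at 477 to 555 CPM (median 540.5) in ZmPep3 leaves and 118 to 179 CPM (median 135) in controls (1.93 ± 0.16, adjusted p = 2.63e-16). TIFY17 rose by 2.34 ± 0.15 (adjusted p = 2.9e-21). TIFY20 (NCBI Gene 100286212) had 5.07 to 10.1 CPM (median 6.46) after ZmPep3 and was nearly silent in controls, at 0.196 to 0.9396 CPM (median 0.454), a log2 fold change of 3.78 ± 0.30 (adjusted p = 2.17e-17). TIFY28 rose by 3.16 ± 0.29 (adjusted p = 2.47e-14). JAZ9 had 17.2 to 20.7 CPM (median 18.03) after ZmPep3 and 0.0336 to 2.63 CPM (median 0.731) in controls, and TIFY29 had 8.55 to 13.4 CPM (median 11.3) after ZmPep3 and 0 to 0.805 CPM (median 0.236) in controls. For both, the size of the rise moved with single controls. JAZ9 rose by 4.25 ± 0.39 (adjusted p = 1.23e-14), or 4.85 without control library 4, and TIFY29 by 5.23 ± 0.55 (adjusted p = 2.1e-12), or 5.87 without control library 6 and 6.49 without control libraries 5 and 6. MYC2a (NCBI Gene 541694), a gene named after the MYC2 activator of jasmonate responses, stood at 290.5 to 362 CPM (median 349) in ZmPep3 leaves, against 59.4 to 83.5 CPM (median 79.04) in controls, with no overlap (2.18 ± 0.12, adjusted p = 5.42e-24).

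**Figure D2:**
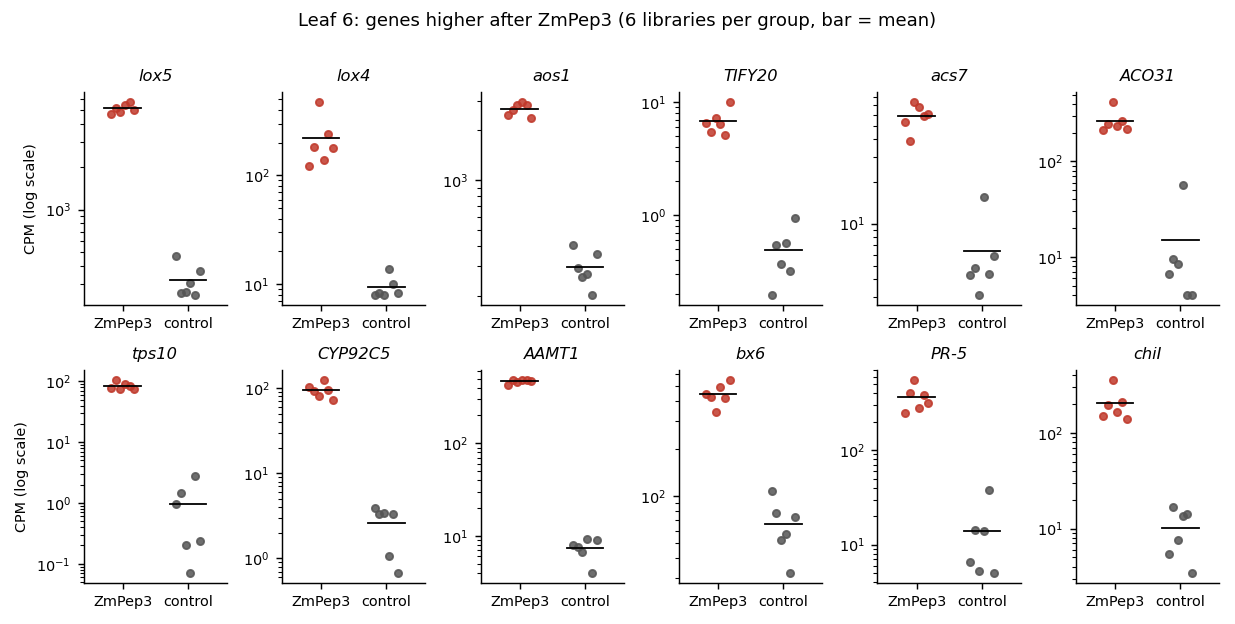
CPM on a log scale of 12 genes of jasmonate, ethylene, volatile and defence protein synthesis in each of the 6 ZmPep3 libraries (left in each panel) and 6 control libraries (right) of leaf 6; bars are means. All 6 ZmPep3 points lie above all 6 control points in every panel, and the control points of ACO31 and tps10 spread widely.

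Ethylene synthesis and perception genes rose in 3 of 6 cases with no fall (median 0.77), or with 1 fall with DESeq2 size factors, by the Wald test of DESeq2, or without any 1 of ZmPep3 library 1 or control libraries 2 or 6. acs7 (NCBI Gene 100279981), an ACC synthase of the step that limits ethylene synthesis, was at 39.03 to 74.4 CPM (median 59.9) in ZmPep3 leaves and 3.09 to 15.6 CPM (median 4.604) in controls, a log2 fold change of 3.22 ± 0.27 (adjusted p = 5.4e-16). ACO31, an ACC oxidase of the last step, had 211 to 421 CPM (median 240.1) after ZmPep3 and 3.99 to 56.96 CPM (median 7.56) in controls. Control library 4 alone was above 10 CPM, and the log2 fold change of 4.16 ± 0.45 (adjusted p = 1.23e-11) became 5.35 without it. etr2, an ethylene receptor, rose by 0.89 ± 0.13 (adjusted p = 7.82e-08).

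Of the transcription factors, WRKY genes, which bind the W box of defence gene promoters, leaned to rises: 14 rose and 2 fell among 22 (median 0.84). WRKY64 (NCBI Gene 100281232) had 81.1 to 113 CPM (median 91.3) in ZmPep3 leaves, against 6.27 to 12.8 CPM (median 10.9) in controls (3.25 ± 0.23, adjusted p = 2.88e-19). WRKY42 was at 13.1 to 20.3 CPM (median 15.8) after ZmPep3 and 0.839 to 2.91 CPM (median 1.83) in controls (3.17 ± 0.31, adjusted p = 3.09e-13). WRKY97 and WRKY109 rose by 2.86 ± 0.36 (adjusted p = 8.67e-10) and 2.02 ± 0.19 (adjusted p = 2.74e-14). NAC genes, a plant-specific family with many stress regulators, gave 10 rises and no fall among 25 (median 0.28). Their called share of 40.0%, all rises, compares with 42.1% called and 23.3% risen over all genes tested. NAC61 (NCBI Gene 100383037) stood out with 62.9 to 101 CPM (median 84.4) after ZmPep3, against 8.96 to 16.2 CPM (median 11.1) in controls (2.82 ± 0.19, adjusted p = 5.55e-20). NAC1 (NCBI Gene 100273092) rose by 2.22 ± 0.24 (adjusted p = 1.1e-11), NAC40 by 1.46 ± 0.19 (adjusted p = 2.61e-09) and NAC79 by 0.98 ± 0.12 (adjusted p = 4.37e-10).

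Other families were mixed. AP2/ERF genes, which include ethylene response factors, gave 10 rises and 11 falls among 37 (median -0.07), with 6 rises without control libraries 5 and 6. EREB58 (NCBI Gene 100384381), known in maize to activate the sesquiterpene synthase gene tps10, stood at 2.73 to 12.1 CPM (median 4.91) in ZmPep3 leaves and at or near 0 in controls, with 0 to 0.604 CPM (median 0.01798). Its log2 fold change was 5.21 ± 0.66 (adjusted p = 8.87e-10), or 6.37 without control library 3. ERF1 rose by 2.68 ± 0.30 (adjusted p = 1.71e-11), EREB121 by 1.91 ± 0.29 (adjusted p = 1.01e-07) and EREB109 by 0.68 ± 0.12 (adjusted p = 4.06e-06), and EREB192 fell by 0.87 on the log2 scale, to between 88.6 and 126 CPM (median 114) against 179.8 to 226 CPM (median 205) in controls (adjusted p = 4.09e-10). dbf1, a DRE-binding factor, fell by 2.15 on the log2 scale (adjusted p = 0.000167). Control library 4 held 283 CPM of it, and without that library the log2 fold change was -1.16 (adjusted p = 0.0222).

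The bHLH list had 11 rises and 10 falls among 41 (median -0.19). bHLH116 (NCBI Gene 100284818) reached 16.1 to 49.9 CPM (median 25.9) after ZmPep3, against 0.229 to 5.93 CPM (median 0.999) in controls, a log2 fold change of 4.14 ± 0.48 (adjusted p = 7.61e-11) that was 5.18 without control library 4. bHLH94 rose by 3.71 ± 0.45 (adjusted p = 3.61e-10), bHLH76 by 1.97 ± 0.28 (adjusted p = 2.76e-08) and bHLH108 by 1.93 ± 0.29 (adjusted p = 9.76e-08). R2R3 MYB factors gave 12 rises and 6 falls among 32 (median 0.02), with 7 rises and 8 falls among the 28 tested where only both groups were fitted. MYB100 had 4.67 to 11.8 CPM (median 5.29) after ZmPep3 and 0 to 0.556 CPM (median 0.323) in controls (4.50 ± 0.46, adjusted p = 7.46e-13), and Myb20 and Myb56 rose by 1.88 ± 0.19 (adjusted p = 9.32e-13) and 1.59 ± 0.19 (adjusted p = 1.39e-10). bZIP factors were even, at 6 rises and 6 falls among 26, and the falls numbered 3 without control library 1 or without ZmPep3 library 1 or 2. Of the bZIP list 46.2% were called, against 42.1% over all genes tested. The largest rises by adjusted p there were bZIP110 (1.00 ± 0.11, adjusted p = 1.58e-11) and bZIP43 (1.36 ± 0.17, adjusted p = 3.27e-10).

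Volatile synthesis genes were among the largest changes. Of 11 terpene synthases 9 rose and none fell (median 2.89). tps10 (NCBI Gene 732751), which makes the sesquiterpenes farnesene and bergamotene, had 73.8 to 107 CPM (median 79.4) in ZmPep3 leaves, against 0.0702 to 2.75 CPM (median 0.591) in controls. The lowest treated leaf was far above the highest control, and the log2 fold change of 6.51 ± 0.65 (adjusted p = 6.09e-13) became 7.17 without control library 5. TPS2, a linalool and nerolidol type synthase, was at 68.3 to 99.3 CPM (median 81.6) after ZmPep3 and 2.599 to 10.7 CPM (median 3.89) in controls (3.92 ± 0.30, adjusted p = 2.17e-17), and its close relative TPS3 rose by 3.43 ± 0.37 (adjusted p = 4.76e-12). TPS5 rose by 4.14 ± 0.58 (adjusted p = 2.5e-08) and TPS7 by 1.73 ± 0.20 (adjusted p = 3.04e-11). Reads of near-identical terpene synthases may have been divided between copies, so the split between relatives is uncertain.

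Both cytochromes P450 of homoterpene synthesis rose. CYP92C5 (NCBI Gene 103631958), which makes the homoterpene DMNT, reached 72.3 to 126 CPM (median 93.99) in ZmPep3 leaves, against 0.671 to 3.96 CPM (median 3.35) in controls, with no overlap and a log2 fold change of 5.18 ± 0.29 (adjusted p = 1.47e-23). CYP92C6 (NCBI Gene 100279968) had 121 to 189 CPM (median 172) after ZmPep3 and was already at 55.6 to 95.01 CPM (median 69.3) in controls (1.18 ± 0.18, adjusted p = 1.53e-07). Precursor genes split, with 3 rises and 2 falls among 8 (median 0.30). dxs2 (NCBI Gene 606430), a first enzyme of the plastid isoprenoid pathway, had 39.1 to 79.2 CPM (median 46.5) after ZmPep3, against 1.62 to 4.25 CPM (median 3.302) in controls (4.07 ± 0.31, adjusted p = 1.31e-17), while its relative dxs1 fell to between 419.8 and 542 CPM (median 510), against 709 to 836 CPM (median 754) in controls (-0.62 ± 0.13, adjusted p = 0.000104). HMGR, of the cytosolic mevalonate pathway, rose by 1.43 ± 0.18 (adjusted p = 3e-10), and lw1, of the plastid pathway, by 0.79 ± 0.13 (adjusted p = 4.11e-07).

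Genes for indole, tryptophan and anthranilate rose in 6 of 8 cases with no fall (median 1.00). AAMT1 (NCBI Gene 100500707), the methyltransferase that makes volatile methyl anthranilate, stood at 425 to 488 CPM (median 476) in ZmPep3 leaves, against 3.95 to 9.16 CPM (median 7.73) in controls. The 6 treated leaves were closely alike, and the log2 fold change was 5.98 ± 0.33 (adjusted p = 1.69e-23). Its relatives AAMT2 and AAMT3 rose by 1.39 ± 0.21 (adjusted p = 1.63e-07) and 1.23 ± 0.17 (adjusted p = 9.08e-09). Igl (NCBI Gene 100273163), the lyase that releases free indole as a volatile, had 20.1 to 46.7 CPM (median 32.5) after ZmPep3 and 1.04 to 17.5 CPM (median 14.1) in controls (1.51 ± 0.26, adjusted p = 2.21e-06), and TSA, a tryptophan synthase alpha subunit, rose by 0.71 ± 0.12 (adjusted p = 6.68e-07).

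Benzoxazinoids are the defensive hydroxamic acids of young maize tissue, and 10 of 14 genes of their synthesis rose with no fall (median 1.25). bx6 (NCBI Gene 541977), a dioxygenase of the later steps, stood at 342 to 551 CPM (median 437) in ZmPep3 leaves, against 32.3 to 107 CPM (median 65.03) in controls (2.75 ± 0.20, adjusted p = 8.23e-19). Bx7 (NCBI Gene 100147731), the methyltransferase after it, had 1493 to 1858 CPM (median 1594) after ZmPep3 and 211 to 374 CPM (median 337) in controls (2.37 ± 0.18, adjusted p = 5.13e-18). The P450 genes BX3 and BX5 rose by 1.77 ± 0.25 (adjusted p = 1.32e-08) and 1.93 ± 0.24 (adjusted p = 7.61e-10), and the glucosyltransferase gene bx9 by 0.97 ± 0.11 (adjusted p = 9.44e-12). In none of these 5 genes did the groups overlap.

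Other aromatic pathways differed in how far they changed. In the shikimate and chorismate list 3 of 4 genes rose and 1 fell (median 0.73), among them the chorismate mutase CM2 (0.97 ± 0.15, adjusted p = 7.85e-08) and dhs2, an enzyme of the first shikimate step at 0.656 to 2.43 CPM (median 1.78) after ZmPep3 and 0 to 0.421 CPM (median 0.125) in controls (3.39 ± 0.86, adjusted p = 0.00109). Of 20 lignin and phenylpropanoid genes 1 rose and 2 fell (median -0.13), with 15.0% called against 42.1% over all genes tested. ccoaomt1 (NCBI Gene 107282093), a caffeoyl-CoA methyltransferase, was the riser, at 679.7 to 1002 CPM (median 718) in ZmPep3 leaves and 286 to 433 CPM (median 372) in controls (1.07 ± 0.12, adjusted p = 1.3e-11). LAC1, a laccase, fell to between 48.2 and 79.6 CPM (median 59.5), against 124 to 201 CPM (median 164) in controls (-1.39 ± 0.17, adjusted p = 1.5e-10). The fall of the shikimate list was not called without control library 6 or without control libraries 5 and 6. None of 3 diterpene and zealexin genes passed (median 1.02), but 2 rose without control libraries 5 and 6 (median 3.77), and 1 without either of them.

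Defence proteins rose in part. Chitinases and glucanases, which attack fungal cell walls, gave 5 rises and no fall among 7 (median 1.43). chiI, a chitinase, had 139.8 to 360.2 CPM (median 179.7) in ZmPep3 leaves, against 3.42 to 16.8 CPM (median 10.7) in controls, a log2 fold change of 4.32 ± 0.37 (adjusted p = 1.28e-15). chn1, also a chitinase, rose by 3.07 ± 0.30 (adjusted p = 2.43e-13), to between 116 and 383 CPM (median 187) against 14.9 to 43.8 CPM (median 21.6) in controls. geb1, a beta-glucanase, was at 46.1 to 190.4 CPM (median 83.7) after ZmPep3 and 3.36 to 44.05 CPM (median 4.83) in controls. Control library 5 held 44.05 CPM of geb1, and its log2 fold change of 3.07 ± 0.62 (adjusted p = 4.01e-05) was 4.29 without that library. Of 8 pathogenesis-related and other antimicrobial proteins 3 rose and none fell (median 0.92). PR-5 (NCBI Gene 542720), a thaumatin-like protein, reached 249 to 558 CPM (median 348) after ZmPep3, against 5 to 38.2 CPM (median 10.2) in controls, with a log2 fold change of 4.72 ± 0.45 (adjusted p = 9e-14), or 5.33 without control library 5. rip2, a ribosome-inactivating protein, rose by 1.50 ± 0.20 (adjusted p = 5.87e-09) and PR10 by 1.02 ± 0.23 (adjusted p = 0.000245).

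Proteinase inhibitors and cystatins, which interfere with digestion in chewing insects, gave 6 rises and 2 falls among 11 (median 0.38). The rises numbered 3 without control libraries 5 and 6, and 3 without control library 3. There was no fall where only both groups were fitted (10 genes tested), with no filter on low counts, or without any 1 of ZmPep3 libraries 2 or 6 or control libraries 1, 2 or 5. wip1 (NCBI Gene 542729), a wound-induced inhibitor, had 167 to 499.7 CPM (median 434) in ZmPep3 leaves and 104 to 203 CPM (median 151) in controls, with overlap and a log2 fold change of 1.43 ± 0.39 (adjusted p = 0.00231). The cystatins cc9 and psei2 rose by 1.20 ± 0.34 (adjusted p = 0.00298) and 0.74 ± 0.13 (adjusted p = 2.48e-06).

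Redox enzymes were mixed. Of 14 peroxidases, catalases and superoxide dismutases 5 rose and 3 fell. The rises numbered 3 without ZmPep3 library 1, without control library 6, without control libraries 5 and 6, and with scaling by DESeq2 size factors. PER42 (NCBI Gene 100101533) and PER70 (NCBI Gene 100125639), class III peroxidases, stood at 238 to 606 CPM (median 285) and 17.7 to 71.8 CPM (median 58.7) in ZmPep3 leaves, against 45.2 to 67.9 CPM (median 55.5) and 2.22 to 6.14 CPM (median 2.47) in controls. Their log2 fold changes were 2.63 ± 0.24 (adjusted p = 1.28e-14) and 3.99 ± 0.42 (adjusted p = 2.09e-12). The catalase gene cat2 fell to between 201 and 305 CPM (median 241), against 506 to 730 CPM (median 659) in controls (-1.35 ± 0.15, adjusted p = 2.86e-11). Glutathione transferases gave 10 rises and 3 falls among 31 (median 0.37), with 41.9% called against 42.1% over all genes tested. GST25 (NCBI Gene 541838) rose by 4.25 ± 0.39 (adjusted p = 1.91e-14), gst24 by 3.47 ± 0.27 (adjusted p = 5.59e-17), gst23 by 3.38 ± 0.23 (adjusted p = 7.91e-20) and gst20 by 2.92 ± 0.20 (adjusted p = 1.12e-19), each with no overlap.

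Genes of fermentation and of the alternative oxidase, a mitochondrial bypass of the respiratory chain, rose in 7 of 10 cases with 1 fall (median 1.29). pdc3, a pyruvate decarboxylase, had 213 to 298 CPM (median 240.3) in ZmPep3 leaves, against 21.8 to 67.3 CPM (median 31.2) in controls (2.75 ± 0.22, adjusted p = 1.01e-16). pdc1, of the same kind, stood at 10.6 to 28.6 CPM (median 14.7) after ZmPep3 and at or near 0 in controls, with 0 to 0.2795 CPM (median 0.0343). aox3 (NCBI Gene 542676), an alternative oxidase, had 10.9 to 54.5 CPM (median 15.6) after ZmPep3 and 0 to 0.599 CPM (median 0.0327) in controls. Among genes named by the rule these were the 2 largest rises, pdc1 by 7.82 ± 0.86 (adjusted p = 1.67e-11) and aox3 by 7.54 ± 0.73 (adjusted p = 1.85e-13), or 8.78 and 9.43 without control library 5. Hb, a haemoglobin gene, rose by 2.77 ± 0.41 (adjusted p = 6.47e-08). AR4 and ZAR1, for which no role is given here, rose by 4.32 ± 0.46 (adjusted p = 4.15e-12) and 5.99 ± 0.53 (adjusted p = 1.8e-15), and the second value was 7.05 without control library 1. AR4 was one of the 12 largest named rises.

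Protein folding in the endoplasmic reticulum gave 10 rises and no fall among 17 (median 0.49). pdi (NCBI Gene 606409), a disulphide isomerase, was at 399.8 to 503 CPM (median 461) after ZmPep3, against 116 to 169.5 CPM (median 144) in controls (1.67 ± 0.13, adjusted p = 4.03e-18). The chaperone genes bip1 and bip2 rose by 1.73 ± 0.20 (adjusted p = 5.7e-11) and 1.52 ± 0.18 (adjusted p = 8.62e-11), and calnexin (CNX) by 1.12 ± 0.13 (adjusted p = 1.02e-10). Cytosolic heat shock proteins gave 4 rises and 2 falls among 15, with 40.0% called against 42.1% over all genes tested. Among the rises were HSP90-1 (1.69 ± 0.22, adjusted p = 1.18e-09) and HSP90-2 (0.77 ± 0.09, adjusted p = 1.03e-10).

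Sugar, nitrogen and potassium genes changed in both directions. Among 7 genes of sugar transport and invertase 3 rose and 3 fell, the falls numbering 1 without ZmPep3 library 3 or 6. MST1 (NCBI Gene 542695), a monosaccharide transporter, had 56.8 to 226 CPM (median 99.98) in ZmPep3 leaves and 6.01 to 17.3 CPM (median 8.35) in controls (3.62 ± 0.27, adjusted p = 2.11e-18). The invertase genes IVR1 and incw1 rose by 2.16 ± 0.16 (adjusted p = 3.48e-19) and 1.70 ± 0.21 (adjusted p = 6.88e-10). Nitrogen assimilation gave 4 rises and 3 falls among 13. gdh1, a glutamate dehydrogenase, stood at 269.8 to 421 CPM (median 312) after ZmPep3 and 60.1 to 97.7 CPM (median 84.6) in controls (1.97 ± 0.13, adjusted p = 2.41e-21). The glutamine synthetase genes gln5 and gln4 rose by 1.31 ± 0.11 (adjusted p = 9.01e-16) and 0.50 ± 0.08 (adjusted p = 1.43e-07), the asparagine synthetase gene asn2 by 2.84 ± 0.54 (adjusted p = 1.66e-05), and NIR, nitrite reductase, fell by 1.07 on the log2 scale (adjusted p = 3.23e-07). Potassium transporters gave 7 rises and 7 falls among 21. HAK1 rose to between 70.1 and 120.5 CPM (median 98.97), against 6.41 to 13.96 CPM (median 12.3) in controls (3.09 ± 0.22, adjusted p = 2.2e-19), HAK7 and HAK9 rose by 1.42 ± 0.15 (adjusted p = 5.73e-13) and 1.35 ± 0.15 (adjusted p = 8.33e-12), and HAK11 was one of the 10 largest named falls at 0.343 to 1.98 CPM (median 0.839) after ZmPep3 and 2.24 to 8.29 CPM (median 5.32) in controls (-2.45 ± 0.35, adjusted p = 1.79e-08).

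Auxin and gibberellin genes fell more often than they rose, and cytokinin genes changed in both directions. The cytokinin list as a whole was even, with 9 rises and 10 falls among 29 (median -0.04). Cytokinin oxidases destroy the hormone, and of the 8 genes with such a symbol that were tested, a subset taken after the values were seen, 5 rose, 1 fell and 2 were not called, or 6 rose and none fell without control library 6, and 3 of 6 rose where the spread came from both groups alone. CKX4 (NCBI Gene 100272805) was at 86.8 to 190.5 CPM (median 114) in ZmPep3 leaves and 4.64 to 8.498 CPM (median 5.68) in controls (4.32 ± 0.29, adjusted p = 3.85e-20), CKX4b rose by 3.38 ± 0.30 (adjusted p = 5.19e-15), and cko2 by 3.33 ± 0.28 (adjusted p = 2.9e-16). The response regulators RR7 (NCBI Gene 541633) and RR6 (NCBI Gene 541632), of the cytokinin pathway, fell. RR7 had 0.913 to 3.61 CPM (median 3.49) in ZmPep3 leaves and 11.01 to 22.7 CPM (median 20.6) in controls (-2.66 ± 0.33, adjusted p = 5.18e-10). This was the largest fall among named genes without overlap and with at least 5 CPM in the higher group. RR6 had a log2 fold change of -1.62 ± 0.19 (adjusted p = 1.37e-10). The histidine kinase gene HK1, named as a cytokinin receptor, rose by 1.03 ± 0.12 (adjusted p = 1.53e-10), whereas HK1b1 (NCBI Gene 732762), a gene of a similar symbol, fell to between 2.597 and 6.05 CPM (median 4.57), against 11.2 to 18.4 CPM (median 15.8) in controls (-1.78 ± 0.16, adjusted p = 7e-15).

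In the auxin list 8 rose and 20 fell among 47 (median -0.40). The auxin response factor genes ARF11, ARF28 and ARF13 fell, with log2 fold changes of -1.38 ± 0.16 (adjusted p = 6.33e-11), -1.30 ± 0.17 (adjusted p = 2.28e-09) and -0.77 ± 0.11 (adjusted p = 3.13e-08), and ARF10 rose by 1.33 ± 0.11 (adjusted p = 2.11e-17). AUX22, an early auxin-induced gene, stood at 1.03 to 3.02 CPM (median 2.08) in ZmPep3 leaves and 3.36 to 9.51 CPM (median 6.99) in controls (-1.74 ± 0.36, adjusted p = 6.91e-05), and AUX3 rose by 0.83 ± 0.13 (adjusted p = 1.09e-07). Yucca2, named after the YUCCA enzymes of auxin synthesis, was low in most of the 12 leaves, at 0 to 0.191 CPM (median 0.0737) after ZmPep3 and 0 to 7.34 CPM (median 0.351) in controls. Its log2 fold change of -4.46 ± 0.94 (adjusted p = 7.64e-05) was -2.97 without control library 4. Gibberellin and brassinosteroid genes gave 2 rises and 6 falls among 10 (median -0.58). an1 (NCBI Gene 542253), a gene of the first committed step of gibberellin synthesis, fell to between 1.05 and 2.51 CPM (median 1.505), against 5.72 to 11.7 CPM (median 8.18) in controls (-2.35 ± 0.36, adjusted p = 1.75e-07). d3, a later gibberellin gene, and DET2, a brassinosteroid gene, fell with log2 fold changes of -1.08 ± 0.16 (adjusted p = 1.27e-07) and -1.01 ± 0.20 (adjusted p = 2.76e-05). D8, a DELLA repressor of gibberellin responses, rose by 0.71 ± 0.12 (adjusted p = 1.9e-06), and Dwf4, of brassinosteroid synthesis, by 0.79 ± 0.12 (adjusted p = 2.05e-07). Abscisic acid genes gave 4 rises and 4 falls among 18, with 44.4% called against 42.1% over all genes tested.

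**Figure D3:**
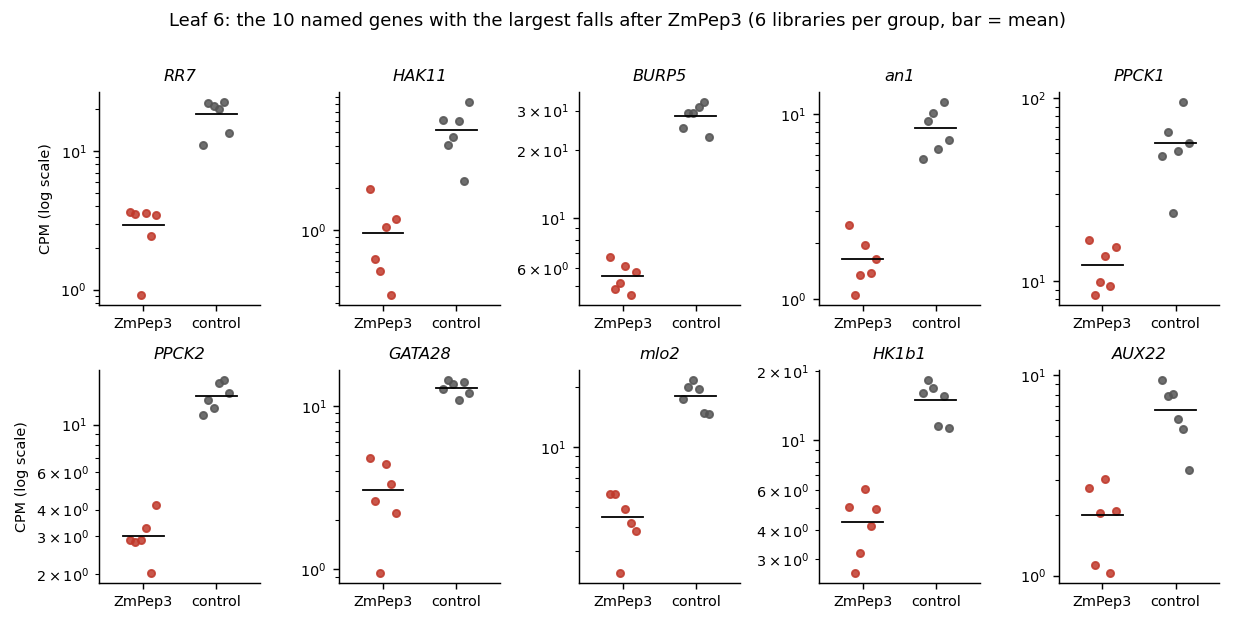
CPM on a log scale of the 10 genes with a name and the largest falls among called genes without overlap and with at least 5 CPM in the higher group. Points are the 6 ZmPep3 libraries (left in each panel) and 6 control libraries (right) of leaf 6, and bars are means. By this choice all ZmPep3 points lie below all control points in each panel. The lowest RR7 and GATA28 libraries lie well under the other ZmPep3 libraries.

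Aquaporins, the water channels of membranes, leaned to falls as well, with 3 rises and 11 falls among 27 (median -0.40). pip2b, a plasma membrane aquaporin, fell to between 117 and 163 CPM (median 140.4), against 191 to 281 CPM (median 206) in controls (-0.66 ± 0.14, adjusted p = 0.000111). TIP4-1 (NCBI Gene 541897), of the vacuolar membrane type, and Lsi1, named after the silicon channel of rice, went the other way, at 431 to 542 CPM (median 468) and 156 to 283 CPM (median 271) after ZmPep3 and 128 to 243 CPM (median 169) and 65.4 to 133 CPM (median 81.5) in controls (1.45 ± 0.12 and 1.43 ± 0.15 on the log2 scale). Circadian and CONSTANS-like genes gave no rise and 5 falls among 8 (median -0.44), among them COL10 (-1.18 ± 0.15, adjusted p = 3.82e-10) and COL5 (-1.46 ± 0.24, adjusted p = 1.15e-06). The hour of harvest and the treatment cannot be told apart in this list or in any other comparison with the controls, since the labels state no harvest time for them.

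Photosystem and light-harvesting genes stayed mostly uncalled, and C4 and Calvin cycle genes were called about as often as all genes tested. Of 17 photosystem and light-harvesting genes 1 rose and 3 fell (median -0.20). The falls numbered 5 with DESeq2 size factors, 6 where the spread came from both groups alone, and 1 without any 1 of ZmPep3 libraries 3 or 6 or control libraries 4 or 5. psad1, a photosystem I subunit, had the smallest adjusted p among the falls, at 887 to 1138 CPM (median 1052) after ZmPep3 and 1338 to 1687 CPM (median 1455) in controls (-0.50 ± 0.16, adjusted p = 0.01). C4 and Calvin cycle genes gave 2 rises and 5 falls among 17 (median -0.22), with 41.2% called against 42.1% over all genes tested. Their largest falls were kinases of phosphoenolpyruvate carboxylase (PEPC), the carbon-fixing enzyme of C4 leaves. PPCK2 (NCBI Gene 606427) stood at 2.02 to 4.19 CPM (median 2.88) in ZmPep3 leaves and 11.1 to 16.2 CPM (median 13.5) in controls (-2.18 ± 0.28, adjusted p = 1.07e-09), PPCK1 at 8.41 to 16.8 CPM (median 11.8) after ZmPep3 and 23.6 to 96.04 CPM (median 54.3) in controls (-2.21 ± 0.28, adjusted p = 1.67e-09), and PPCK4 fell less, with overlap (-1.07 ± 0.30, adjusted p = 0.00243).

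Cell wall genes changed in both directions. Cellulose synthases gave 5 rises and 2 falls among 13 (median 0.17). CesA-4 (NCBI Gene 542624) had 442 to 499 CPM (median 459) in ZmPep3 leaves, against 169.5 to 215 CPM (median 183) in controls (1.30 ± 0.10, adjusted p = 1.38e-18), and CesA-8 (NCBI Gene 541806) rose by 1.34 ± 0.12 (adjusted p = 8.27e-16). Expansins, which loosen walls during growth, gave 2 rises and 2 falls among 11, with 36.4% called against 42.1% over all genes tested. expA4 rose by 2.08 ± 0.43 (adjusted p = 6.05e-05) and expB8 fell, with a log2 fold change of -1.25 ± 0.20 (adjusted p = 4.82e-07). The largest named falls further included BURP5 (NCBI Gene 100279594), at 4.53 to 6.72 CPM (median 5.42) after ZmPep3 and 22.8 to 32.9 CPM (median 29.2) in controls (-2.37 ± 0.17, adjusted p = 5.17e-19), and GATA28 (NCBI Gene 100281278), a GATA-type factor at 0.949 to 4.79 CPM (median 2.98) after ZmPep3 and 10.9 to 14.5 CPM (median 13.2) in controls (-2.08 ± 0.33, adjusted p = 3.12e-07). Genes of dividing cells gave 3 rises and 3 falls among 23, or 1 rise and 1 fall without control libraries 5 and 6, 5 falls with DESeq2 size factors and by the Wald test of DESeq2, and 1 rise among the 16 tested where only both groups were fitted. Their summed level was 128 to 139 CPM after ZmPep3 and 131 to 163 CPM in controls. Autophagy genes gave 3 rises and 4 falls among 14, with Atg8c at -0.54 ± 0.09 (adjusted p = 2.71e-07).

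Markers of single tissues were summed per library. Summed levels of 9 epidermis genes were 1123 to 1886 CPM after ZmPep3 and 894 to 1572 CPM in controls, with 1 gene higher and none lower, or 3 higher without control libraries 5 and 6. The 3 phloem genes summed to between 618 and 754 CPM after ZmPep3 and 569 to 694 CPM in controls, with 2 genes higher. The 2 ligule genes tested summed to between 8.14 and 10.2 CPM after ZmPep3 and 10.3 to 13.3 CPM in controls, and the 1 lower call was lost under the replicate block, with no filter on low counts, and without any 1 of ZmPep3 libraries 1, 3, 4, 5 or 6 or control libraries 1, 3, 4 or 5. The part of tissue makeup in the changes above was not tested.

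The response of leaf 6 was next set against that of leaves 4 and 5 to the same peptide and time, each relative to the control of its own leaf. The test was on the difference of the log2 fold changes, leaf 6 minus the other leaf. Against the mature leaf 4 it passed for 4759 of 25558 genes (18.6%), of which 3123 (12.2%) had a more positive and 1636 (6.40%) a more negative change in leaf 6. Against leaf 5, the neighbouring immature leaf, it passed for 529 genes (2.07%), 314 (1.23%) more positive and 215 (0.841%) more negative. With DESeq2 size factors the split against leaf 5 turned to 208 more positive and 342 more negative. Leaf 4 was also the leaf whose sheath had been removed, so leaf age and this step cannot be told apart. For comparison, the numbers of genes called within a leaf were alike: 10762 in leaf 6, 11605 in leaf 5 (45.4%) and 10788 in leaf 4 (42.2%).

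Some benzoxazinoid genes changed more in leaf 6 than in either older leaf. Of 14 genes, 6 had a larger change in leaf 6 than in leaf 4 and 4 a larger change than in leaf 5, with none smaller. bx6 stood at 342 to 551 CPM (median 437) in ZmPep3 leaves and 32.3 to 107 CPM (median 65.03) in controls in leaf 6. In leaf 5 it had 891 to 1324 CPM after ZmPep3 and 201 to 646 CPM in controls. In leaf 4 it had 1791 to 2985 CPM after ZmPep3 and 1302 to 1986 CPM in controls. Each group of leaf 6 thus lay below the like group of leaf 5, and each group of leaf 5 below the like group of leaf 4. Its log2 fold change was 2.75 ± 0.20 in leaf 6, 1.31 ± 0.19 in leaf 5 and 0.71 ± 0.19 in leaf 4, with differences of 1.43 ± 0.27 (adjusted p = 0.000564) and 2.03 ± 0.27 (adjusted p = 3.2e-08). Bx7 gave 2.37 ± 0.18, 1.14 ± 0.17 and 0.72 ± 0.17 in leaves 6, 5 and 4, and leaf 6 exceeded leaf 5 by 1.24 ± 0.25 (adjusted p = 0.00124) and leaf 4 by 1.65 ± 0.25 (adjusted p = 5.4e-07).

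Of 14 allene oxide and oxophytodienoate genes, 7 had a larger change in leaf 6 than in leaf 4, and 2 also than in leaf 5, with none smaller. The 2 were aoc2, with log2 fold changes of 2.77 ± 0.14 in leaf 6, 1.65 ± 0.14 in leaf 5 and 1.01 ± 0.14 in leaf 4, and opr7, with 2.71 ± 0.16, 1.67 ± 0.15 and 1.47 ± 0.15. Leaf 6 minus leaf 5 was 1.11 ± 0.19 (adjusted p = 0.000173) for aoc2 and 1.04 ± 0.21 (adjusted p = 0.00158) for opr7, and leaf 6 minus leaf 4 was 1.76 ± 0.19 (adjusted p = 2.14e-10) and 1.24 ± 0.21 (adjusted p = 8.69e-06). After ZmPep3, aoc2 stood at 499 to 717 CPM (median 632) in leaf 6, above the 272 to 429.9 CPM of leaf 5 and overlapping the 379 to 591 CPM of leaf 4. Its controls lay at 72.7 to 108 CPM in leaf 6, which overlapped 95.7 to 138 CPM in leaf 5 and lay below 187 to 291 CPM in leaf 4. Among 9-lipoxygenases the change of 1 of 6 was larger in leaf 6 than in leaf 4, and none differed from leaf 5 at an adjusted p under 0.05.

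Of 11 terpene synthases 4 had a larger change in leaf 6 than in leaf 4, and none differed from leaf 5. Of 8 isoprenoid precursor genes 1 had a larger change than in leaf 4 and 2 than in leaf 5. Both homoterpene P450 genes had a larger change than in leaf 4, and 1 of them also than in leaf 5. CYP92C5 had log2 fold changes of 5.18 ± 0.29 in leaf 6, 3.36 ± 0.26 in leaf 5 and 3.31 ± 0.26 in leaf 4, with leaf 6 larger by 1.82 ± 0.35 (adjusted p = 0.000851) and 1.87 ± 0.35 (adjusted p = 4.76e-05). Its level after ZmPep3 was nevertheless lowest in leaf 6, at 72.3 to 126 CPM (median 93.99) below the 224 to 310.1 CPM of leaf 5 and the 563 to 954 CPM of leaf 4. tps10 changed by 6.51 ± 0.65 in leaf 6, 7.87 ± 0.70 in leaf 5 and 2.49 ± 0.51 in leaf 4. The difference from leaf 4 was 4.02 ± 0.77 (adjusted p = 7.63e-05), or 4.68 without leaf 6 control library 5, and that from leaf 5 was not called (-1.36 ± 0.89, adjusted p = 0.517). AAMT1 exceeded leaf 4 by 1.88 ± 0.39 (adjusted p = 0.000244) and was not called against leaf 5 (1.25 ± 0.39, adjusted p = 0.0712), but was called at 1.39 without leaf 5 control library 1 (adjusted p = 0.0378). PR-5 likewise exceeded leaf 4, by 2.58 ± 0.55 (adjusted p = 0.000388), or 3.19 without leaf 6 control library 5, and was not called against leaf 5 (0.98 ± 0.55, adjusted p = 0.415). Of 10 defence genes compared between leaves (PepR1, tps10, lox5, PR-5, dxs2, CYP92C5, Igl, AAMT1, bx6 and TIFY20), 5 had a larger change in leaf 6 than in leaf 4, and 2 also than in leaf 5, with none smaller. PepR1 itself changed by 2.43 ± 0.42 in leaf 4, where its ZmPep3 libraries stood at 2.76 to 6.49 CPM and its controls at 0 to 1.396 CPM. Its difference of -1.34 ± 0.59 (adjusted p = 0.104) was not called, and was called at -1.56 without leaf 6 control library 2 (adjusted p = 0.0436).

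**Figure D4:**
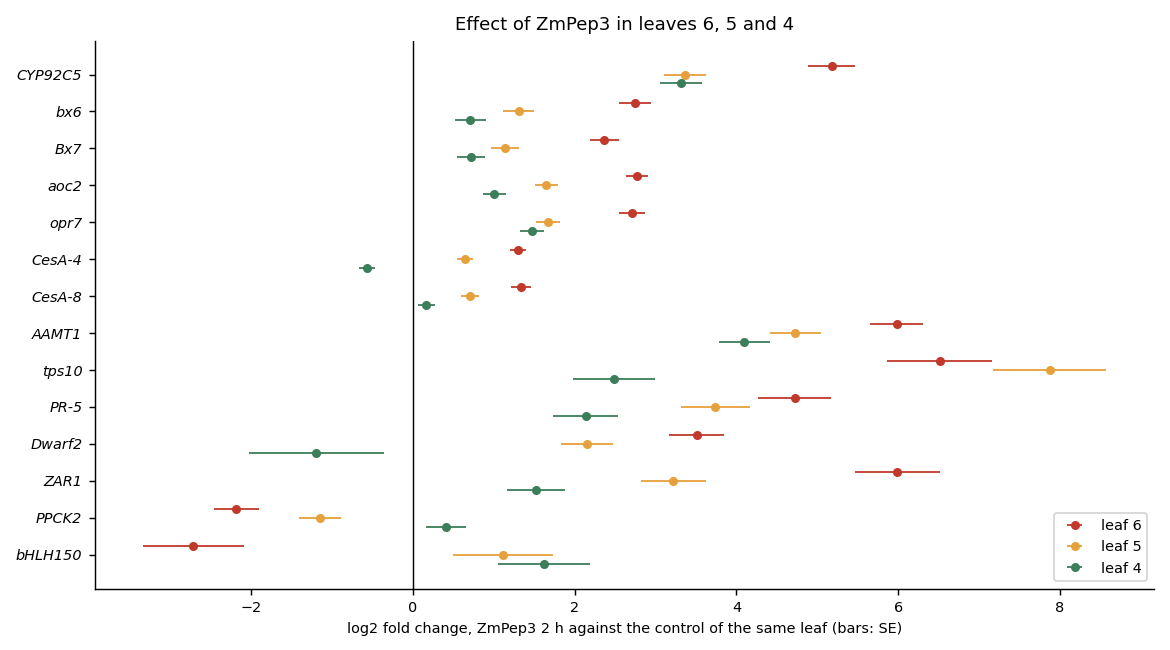
Log2 fold change of ZmPep3 at 2 h against the control of the same leaf for 14 genes in leaf 6 (red), leaf 5 (orange) and leaf 4 (green); points are estimates from 6 libraries per group and bars their standard errors. Leaf 6 lies furthest right for bx6, Bx7, aoc2, opr7, CYP92C5 and both CesA genes, and furthest left for PPCK2 and bHLH150.

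Cellulose synthases differed between leaves in many members: 8 of 13 changed more positively and 1 more negatively in leaf 6 than in leaf 4, and 4 more positively than in leaf 5. CesA-4 rose in leaf 6 (1.30 ± 0.10) and leaf 5 (0.65 ± 0.10) and fell in leaf 4 (-0.56 ± 0.10), where it stood at 97.7 to 136 CPM after ZmPep3 and 163 to 187 CPM in controls. Leaf 6 minus leaf 4 was 1.87 ± 0.14 (adjusted p = 8.79e-17) and leaf 6 minus leaf 5 0.65 ± 0.13 (adjusted p = 0.00201). CesA-8 gave 1.17 ± 0.16 (adjusted p = 1.03e-07) and 0.63 ± 0.16 (adjusted p = 0.0191) for these differences, the second of which was not called where the spread came from the 4 groups alone (adjusted p = 0.0703). PPCK2 fell in leaf 6 (-2.18 ± 0.28) and in leaf 5 (-1.15 ± 0.26) and was not called in leaf 4 (0.41 ± 0.25, adjusted p = 0.185), a difference of -2.58 ± 0.37 (adjusted p = 2.62e-07) from leaf 4. Dwarf2, for which no role is given here, rose to between 27.9 and 43.9 CPM (median 40.1) in leaf 6, against 2.05 to 5.48 CPM (median 3.31) in controls (3.51 ± 0.34, adjusted p = 1.59e-13), and was barely detected in leaf 4, at 0 to 0.209 CPM after ZmPep3 and 0 to 0.432 CPM in controls. Its difference between the 2 leaves was 4.70 ± 0.90 (adjusted p = 7.53e-05), from 4.11 without leaf 4 control library 2 to 5.46 without leaf 4 ZmPep3 library 6. ZAR1 exceeded leaf 4 by 4.47 ± 0.65 (adjusted p = 3.1e-07), or 5.53 without leaf 6 control library 1. It exceeded leaf 5 by 2.77 ± 0.68 (adjusted p = 0.0128), or 3.83 without that library, and was not called without leaf 6 control libraries 5 and 6 (2.38; adjusted p = 0.069).

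Some of the more negative changes of leaf 6 moved with leaf 6 control library 4. bHLH150, EREB71 and Yucca2 were lower after ZmPep3 in leaf 6 (-2.71 ± 0.62, -1.06 ± 0.42 and -4.46 ± 0.94), while bHLH150 and EREB71 rose in leaf 4 (1.62 ± 0.57 and 2.71 ± 0.43) and Yucca2 was not called there (0.40 ± 0.56, adjusted p = 0.608). Library 4 held the highest control value of all 3 in leaf 6: 22.4 CPM of bHLH150, 24.2 CPM of EREB71 and 7.34 CPM of Yucca2. Leaf 6 minus leaf 4 was -4.33 ± 0.85 (adjusted p = 0.000105) for bHLH150, -3.77 ± 0.60 (adjusted p = 2.48e-06) for EREB71 and -4.86 ± 1.11 (adjusted p = 0.000955) for Yucca2, and -3.49, -3.16 and -3.37 without that library. Within leaf 6, bHLH150 then changed by -1.87 (adjusted p = 0.00969) and EREB71 by -0.45 (adjusted p = 0.397). EREB71 in leaf 6 was also not called without ZmPep3 library 3, 5 or 6 (adjusted p 0.0542 to 0.0796), or where the spread came from both groups alone (adjusted p = 0.125).

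Against leaf 5 few members of most lists differed, and 2.07% of all genes tested did. The nitrogen list had 3 of 13 genes more positive in leaf 6, the bHLH list 1 more positive and 4 more negative of 41, and AP2/ERF factors 3 more negative of 37. asn2 differed by 3.46 ± 0.73 (adjusted p = 0.00291), or 2.56 without leaf 5 control library 6, and was called higher in leaf 6 (2.84 ± 0.54) and not called in leaf 5 (-0.62 ± 0.50, adjusted p = 0.322), where controls ranged over 7.85 to 83.8 CPM. NAR differed by 1.76 ± 0.46 (adjusted p = 0.0224), which was not called without leaf 5 control library 6 (1.60; adjusted p = 0.0572) or leaf 6 ZmPep3 library 5 (1.54; adjusted p = 0.0657). vp14, of abscisic acid synthesis, rose in leaf 5 (2.62 ± 0.50) and was not called in leaf 6 (-0.93 ± 0.47, adjusted p = 0.104), a difference of -3.55 ± 0.68 (adjusted p = 0.000922), or -2.71 without leaf 6 control library 4. In leaf 6 its change was called without control library 6 (-1.14; adjusted p = 0.0427). bHLH150 differed by -3.83 ± 0.88 (adjusted p = 0.00683), or -2.99 without leaf 6 control library 4. It was not called without leaf 5 ZmPep3 library 6 (-2.81, adjusted p = 0.0689), or where the spread came from the 4 groups alone (-3.91, adjusted p = 0.0623). WRKY97 rose in both leaves, by 4.78 ± 0.39 in leaf 5, and its difference of -1.91 ± 0.50 (adjusted p = 0.0248) was not called without any 1 of leaf 6 control libraries 2 or 4, leaf 5 control libraries 2 or 5 or leaf 5 ZmPep3 library 6 (adjusted p 0.0505 to 0.0845). The WRKY97 difference was also not called where the spread came from the 4 groups alone (-1.99, adjusted p = 0.0799).

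Leaf 6 was also exposed for 2 h to HAC, and the 6 ZmPep3 libraries were compared with those 6 libraries directly. HAC reached the leaf through the air and ZmPep3 through the water, and no dose links them, so differences are between the treatments as given. ZmPep3 and HAC leaves differed in 4926 of 25558 genes (19.3%), with 3279 (12.8%) higher and 1647 (6.44%) lower after ZmPep3. With only both groups fitted, the counts were 3521 higher and 2751 lower of 23112 genes tested. Both treatments were set against the same 6 controls, against which ZmPep3 gave 10762 calls and HAC 6354 (24.9%).

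WRKY genes were often higher after ZmPep3 than after HAC, with 13 of 22 higher and none lower (median log2 difference 0.88). WRKY42 stood at 13.1 to 20.3 CPM (median 15.8) in ZmPep3 leaves and 1.02 to 3.56 CPM (median 1.65) in HAC leaves (2.97 ± 0.31, adjusted p = 7.69e-12). WRKY97 had 14.4 to 30.7 CPM (median 19.8) after ZmPep3 and 0.194 to 1.84 CPM (median 1.26) after HAC (4.10 ± 0.40, adjusted p = 5.4e-13). WRKY64 was higher by 1.82 ± 0.21 (adjusted p = 3.25e-10), and in HAC leaves it lay at 20.7 to 29.4 CPM (median 27.1).

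Some ethylene, chitinase and co-receptor genes were higher after ZmPep3 as well. In the ethylene list 3 of 6 were higher and none lower. ACO31 had 211 to 421 CPM (median 240.1) after ZmPep3 and 37.04 to 63.3 CPM (median 47.98) after HAC (2.50 ± 0.42, adjusted p = 3.65e-06), and acs7 was higher by 2.24 ± 0.26 (adjusted p = 1.73e-10). Of 7 chitinases and glucanases 4 were higher and none lower (median 1.62). chiI stood at 139.8 to 360.2 CPM (median 179.7) after ZmPep3 and 11.96 to 21.3 CPM (median 15.1) after HAC (3.67 ± 0.36, adjusted p = 5.95e-13), chn1 was higher by 1.90 ± 0.29 (adjusted p = 3.03e-07) and PR-5 by 2.67 ± 0.41 (adjusted p = 3.9e-07). Of 4 receptor and co-receptor genes 2 were higher and none lower. serk3 had 78.2 to 149 CPM (median 101) after ZmPep3 and 20.9 to 28.2 CPM (median 25.02) after HAC (2.09 ± 0.13, adjusted p = 3.45e-21), and rbohD was higher by 1.14 ± 0.22 (adjusted p = 3.43e-05). EREB58 was at 2.73 to 12.1 CPM (median 4.91) after ZmPep3 and 0 to 0.505 CPM (median 0.155) after HAC (4.70 ± 0.64, adjusted p = 1.92e-08). Among 10 fermentation and alternative oxidase genes 5 were higher and none lower, with pdc3 higher by 1.31 ± 0.21 (adjusted p = 1.44e-06) and pdc1 by 5.59 ± 0.71 (adjusted p = 3.57e-09). The jasmonate synthesis list had 9 of 14 higher and none lower (median 0.63), and TIFY20 was higher by 0.99 ± 0.24 (adjusted p = 0.00121). CNR7, for which no role is given here, was at 13.9 to 70.2 CPM (median 27.2) after ZmPep3 and 0.769 to 3.64 CPM (median 1.71) after HAC (4.09 ± 0.44, adjusted p = 2.51e-11).

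Most benzoxazinoid genes and some volatile genes went the other way. Of 14 benzoxazinoid genes 9 were lower after ZmPep3 than after HAC and 1 higher (median -0.68). BX5 stood at 299 to 623 CPM (median 506) in ZmPep3 leaves and 1177 to 1682 CPM (median 1420) in HAC leaves (-1.52 ± 0.24, adjusted p = 8.01e-07), and bx6 and Bx7 differed by -0.70 ± 0.19 (adjusted p = 0.00387) and -0.65 ± 0.17 (adjusted p = 0.00332). Of 11 terpene synthases 3 were lower and 1 higher (median -0.46). TPS2 had 68.3 to 99.3 CPM (median 81.6) after ZmPep3 and 235 to 349 CPM (median 313) after HAC (-1.86 ± 0.27, adjusted p = 1.59e-07), TPS3 differed by -1.81 ± 0.31 (adjusted p = 6.32e-06), and tps10 by -1.58 ± 0.49 (adjusted p = 0.0145), at 207 to 282 CPM (median 259.8) after HAC. CYP92C5 (-1.06 ± 0.24, adjusted p = 0.00047), dxs2 (-1.81 ± 0.27, adjusted p = 3.33e-07) and Igl (-1.05 ± 0.25, adjusted p = 0.0013) were lower after ZmPep3 too. Their lists were split, with 1 higher and 1 lower of 2 homoterpene P450 genes, 1 higher and 1 lower of 8 isoprenoid precursor genes, and 2 higher and 3 lower of 8 genes of indole, tryptophan and anthranilate synthesis. Against the controls that both treatments share, TPS2 rose by 3.92 ± 0.30 with ZmPep3 and 5.78 ± 0.33 with HAC, and dxs2 by 4.07 ± 0.31 with ZmPep3 and 5.87 ± 0.33 with HAC.

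**Figure D5:**
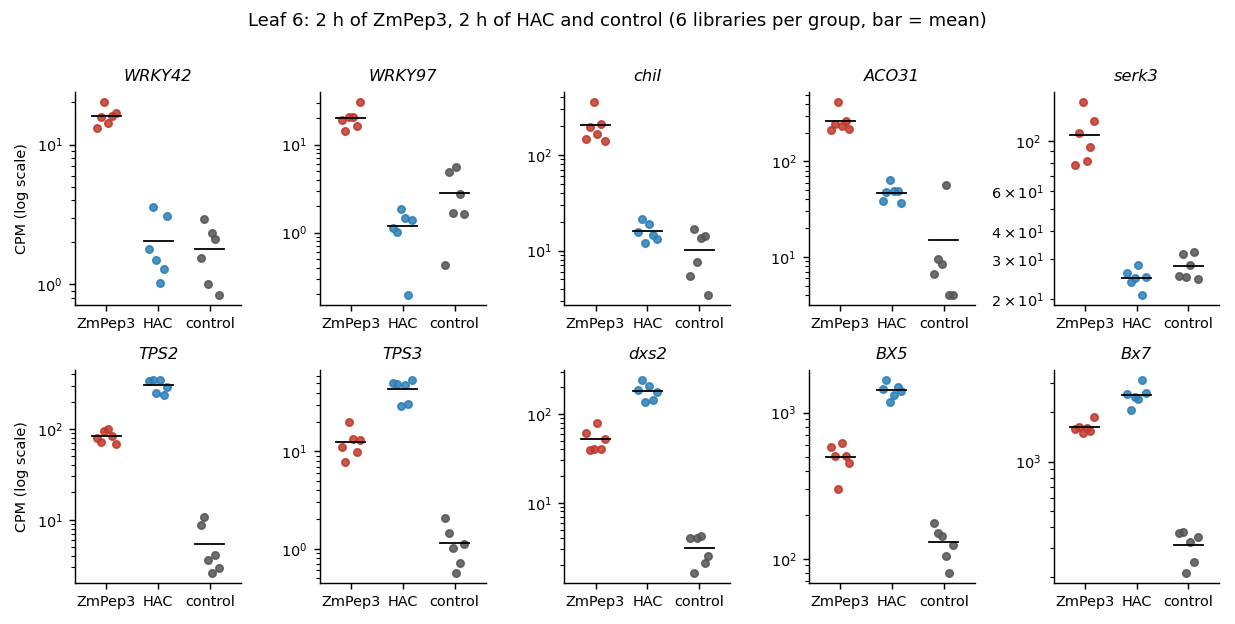
CPM on a log scale of 10 genes in leaf 6 after 2 h of ZmPep3 (red), after 2 h of HAC (blue) and in controls (grey), 6 libraries per group with means as bars. WRKY42, WRKY97, chiI, ACO31 and serk3 are highest with ZmPep3, and TPS2, TPS3, dxs2, BX5 and Bx7 are highest with HAC.

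Further lists differed as well. Aquaporins were lower after ZmPep3 than after HAC in 10 of 27 cases and higher in none (median -0.35). The auxin list had 3 higher and 9 lower of 47, the cytokinin list 7 higher and 1 lower of 29, and the abscisic acid list 8 higher and 2 lower of 18. AAMT1, with 350.2 to 478 CPM (median 434) after HAC, and lox5, with 4819 to 6040 CPM (median 5872) after HAC, were not called between the treatments, with differences of 0.14 ± 0.26 (adjusted p = 0.787) and -0.16 ± 0.31 (adjusted p = 0.805). GATA28 was lower after ZmPep3 by -2.36 ± 0.33 (adjusted p = 4.6e-08), at 0.949 to 4.79 CPM (median 2.98) against 11.2 to 20.2 CPM (median 15.9) after HAC. PepR1 was not called (0.79 ± 0.42, adjusted p = 0.204). Of the 10 defence genes named above 2 were higher after ZmPep3, 5 were lower and 3 were not called. dbf1 differed by -2.01 ± 0.47 (adjusted p = 0.000904), which rested on HAC library 3 and was -0.61 without it (adjusted p = 0.311). This difference was also not called where only both groups were fitted (-2.02, adjusted p = 0.0712).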

How the data were processed

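RNA was sequenced by BGI (DNBSEQ) from whole detached leaves in 72 libraries, 12 groups of 6 biological replicates. Bowtie2, RSEM and the assembly B73 RefGen_v4 are named in the submitters' processing notes, without versions. The authors deposited RSEM expected counts per gene, without scaling across samples, and FPKM values, which the authors scaled to gene length and mapped fragments and which were used only for levels between genes. Of the counts above 0, 11.09% were not whole (tolerance 1e-06), so reads of near-identical genes were divided and their levels are uncertain. Strand use in counting is not given in the sources used here.

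Of 43547 entries, 11312 were blank and 32235 were genes with values, all NCBI Gene numbers; 30403 were found in the NAM-5.0 reference table, which names 2559. Its build differs, so no coordinates or sequences are given. Expected counts were rounded, filtered by filterByExpr (25558 genes left, 2331 with a name), TMM-scaled and fitted with 1 coefficient per group over all 72 libraries in edgeR 4.0.16 (R 4.3.3), by its robust quasi-likelihood test with Benjamini-Hochberg adjustment at 0.05. A fold change is a log2 value ± SE, and CPM are TMM-scaled, given as lowest, highest and median of 6 libraries. The SE was worked back from the test, as the absolute log2 fold change over the square root of its F statistic. It therefore adds nothing to the p-value of that test. Components used log2 CPM with a prior count of 2. Totals over the 72 libraries were 26212015 to 31052269 (median 29911688), and no pair was identical.

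The fit was tested on simulated counts for this comparison: at 25322 genes, 76% of 2-fold and 98% of 4-fold changes among 200 changed genes were recovered, and 8 of 182 calls were false. The 200 were drawn from genes above a minimum level in controls, with as many rises as falls and without outlying libraries. The real comparison called 42.1% of genes, so these rates may not carry over to it or to genes of low level. Alternatives were DESeq2 size factors, no filter, a mean CPM of at least 1, a replicate block, the DESeq2 1.42.0 Wald test, only the groups of the contrast (with filter, scaling and spread all remade), no control libraries 5 and 6, and each library left out at the dispersions of the full fit.

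The members, the 54 lists (854 genes) and the naming rule were chosen with earlier results of these data known. The rule took the 12 largest rises and 10 largest falls called, without overlap, with at least 5 CPM and a name; up to 5 members of each list by smallest adjusted p; the 4 largest in each direction of the other contrasts; and 10 defence genes. Its part on unnamed genes with a product description could not be applied, as the table gives none. It gave 272 genes, of which 178 are named.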

Additional observations from a re-analysis of the deposited data

Results flagged for a closer look

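Among 356 groups of 6 libraries looked at, the 2 of leaf 6 for each of 178 genes, 1 library stood apart from the other 5 in 51 cases by Dixon's criterion, the gap to the nearest library over the range of the group. Chance gives about 1 in 20 groups. The values below are CPM, with the nearest other library of the same group in second place.

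ZmPep3 library 3 stood apart in 18 genes. Signalling genes were higher there: Pti1b at 56.95 (nearest 42.8), lrk1 at 25.63 (14.8), simk1 at 132.5 (89.0) and CaM2 at 36.65 (25.9). So were lox4 at 477.6 (241), ACO31 at 421.2 (267), EREB109 at 110.1 (73.5), MYB100 at 11.76 (6.48) and ccoaomt1 at 1002 (793). Defence and stress genes in it were chiI at 360.2 (212), gst23 at 49.76 (34.7), gst24 at 100 (54.6), aox3 at 54.47 (21.3), incw1 at 154.2 (68.5), AR4 at 16.14 (8.495) and CNR7 at 70.17 (29.25). BX3 at 810.5 (1201) and Dwarf2 at 27.93 (38.2) were lower than in the other ZmPep3 libraries. ZmPep3 library 1 was lowest for TIFY27 at 477.2 (528) and MYC2a at 290.5 (337). ZmPep3 library 5 was highest for serk1 at 5.6 (3.14). ZmPep3 library 6 was highest for bHLH108 at 29.06 (17.6) and lowest for wip1 at 166.7 (418) and PER70 at 17.74 (51.6).

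Control library 4 stood above the other controls in 11 genes. These were CDPK1 at 128.7 (55.9), TIFY28 at 14.22 (5.93), acs7 at 15.59 (5.91), ACO31 at 56.96 (9.495), bHLH116 at 5.935 (1.36), TSA at 56.64 (43.0) and vp14 at 52.67 (12.8). Yucca2 at 7.339 (2.27), bHLH150 at 22.44 (6.44), EREB71 at 24.19 (8.63) and dbf1 at 282.8 (77.3) complete them. Control library 5 was highest in 7 genes: geb1 at 44.05 (7.06), PR-5 at 38.18 (14.4), gst24 at 10.38 (4.71), pdc1 at 0.2795 (0.098), aox3 at 0.599 (0.0702), Atg8c at 107.7 (90.85) and MST1 at 17.29 (9.38). Control library 1 stood apart in 8, being highest for mlo9 at 23.86 (18.9), lox9 at 34.32 (21.55), expB8 at 107.6 (73.9), Lsi1 at 133.3 (90.2) and ZAR1 at 0.2288 (0.0671), and lowest for rbohB at 26.08 (30.4), ARF11 at 29.58 (44.2) and COL5 at 23.66 (34.7). Control library 3 was lowest for EREB109 at 33.06 (45.9).

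Only some of the named genes were looked at here for differences between leaves. Part of these were chosen by the rule for the largest such differences, so the counts below do not estimate how often leaves differ. Over all genes tested, the difference was called for 18.6% against leaf 4 and 2.07% against leaf 5. Of 17 looked at against leaf 4, the effect of ZmPep3 differed in 16 by the test of the difference. Leaf 6 minus leaf 4 on the log2 scale was 1.76 for aoc2, 1.24 for opr7, 4.02 for tps10, 1.87 for CYP92C5, 1.88 for AAMT1, 2.03 for bx6, 1.65 for Bx7 and 2.58 for PR-5. It was also positive for CesA-4 at 1.87, CesA-8 at 1.17, Dwarf2 at 4.70 and ZAR1 at 4.47. It was negative for PPCK2 at -2.58, Yucca2 at -4.86, bHLH150 at -4.33 and EREB71 at -3.77. Leaf 6 minus leaf 5 differed in 13 of the 16 named genes looked at: aoc2 at 1.11, opr7 at 1.04, CYP92C5 at 1.82, bx6 at 1.43, Bx7 at 1.24, CesA-4 at 0.65, CesA-8 at 0.63, asn2 at 3.46, ZAR1 at 2.77 and NAR at 1.76 were positive, and WRKY97 at -1.91, bHLH150 at -3.83 and vp14 at -3.55 negative.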

How the results depend on the processing

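The count of genes called in leaf 6 stayed within 1.5 times of 10762 under every alternative run, from 9379 without control libraries 5 and 6 to 11590 with the DESeq2 Wald test, and from 9583 to 10486 without 1 library at a time. For leaf 6 minus leaf 4 the counts without 1 library ran from 4251 to 4856, for leaf 6 minus leaf 5 from 385 to 561, and for ZmPep3 against HAC from 3859 to 4946. The count for leaf 6 minus leaf 5, 529 in the fit of all groups, was 335 of 24308 genes tested where only the 4 groups of the contrast were fitted. It was 802 with the DESeq2 Wald test (299 more positive and 503 more negative), and the cause was not tested. DESeq2 size factors moved the median log2 fold change of leaf 6 by -0.06.

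Replicate numbers did not pair the libraries: deviations from the group means correlated over 0.1 in 4 of 126 pairs of like number (median 0.005). With the replicate number as a block, the counts were 10774, 4855, 551 and 4942 for leaf 6, leaf 6 minus leaf 4, leaf 6 minus leaf 5 and ZmPep3 against HAC. Under the block the leaf 6 change of EREB71 was not called (adjusted p = 0.0571) and the leaf 6 minus leaf 5 difference of AAMT1 was (adjusted p = 0.0439).

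For the 178 genes named, 4888 of 4926 alternative values kept their direction and side of the threshold, 27 were no longer past it and 11 came to pass it, and no sign of a called value turned. The losses were those of PepR1, EREB71, WRKY97, CesA-8, ZAR1, bHLH150, NAR and dbf1. Genes near 1 CPM, such as PepR1, rest on few counts per library. Of the 100 largest rises 90 had no name and are not described. Among list counts under 3, the 2 falls of the MLO, WRKY, isoprenoid precursor, heat shock, expansin and lignin lists and the 2 rises of the C4 and Calvin cycle list numbered 1 under 1 or more alternatives each, and the 1 rise of the lignin list numbered 2 under some.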
